A study of Mus musculus with 2 samples.

Results

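The 9 genes followed here encode channels and transporters of the melanosome or the pigment cell, and a receptor, GPR143. They were chosen by name for function, with earlier results of these data known. They were Oca2, Slc45a2, Tpcn2, Slc24a5, Slc24a4, Trpm1, Atp7a, Mfsd12 and Gpr143, out of 19505 genes named on the array. Each had 1 probe set. Total RNA came from B16F10, an established mouse melanoma cell line that makes pigment, and it was hybridised to 2 Affymetrix arrays. One population stably carried a GFP expression plasmid and the other an NRF3 expression plasmid, each co-transfected with a puromycin resistance vector and kept under puromycin selection. Both populations received forskolin for 5 days, so the GFP cells are controls for the plasmid and every value below was measured under forskolin. NRF3, the product of Nfe2l3, is a cap'n'collar transcription factor. The labels give neither the number of clones or cultures behind each population nor the species of the NRF3 sequence. In bulk RNA a higher level in every cell and a high level in some of the cells cannot be told apart.

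The melanosome is a lysosome-related organelle in which tyrosinase turns tyrosine into melanin. Tyrosinase works poorly in acid, so channels and transporters that let the melanosome lose its acidity, together with those that bring in copper and cystine, set how much pigment is made and of which kind. Human albinism and natural variation in skin, hair and eye colour map to many of these genes.

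With 1 array per group there was no replicate and hence no test, standard error or p-value. Each difference compares these 2 RNA samples and was taken as the deposited log2 value of NRF3 minus that of GFP. A gene was counted as higher or lower when the difference reached 2-fold, which is a rule of size. Detection meant that at least 1 of both readings came to 5.89 or more, the middle of the values of named probe sets, which held for 10162 genes. All 9 members met this floor by their brighter value, and 7 by both values. The control rows with neg in their name served as a rough background. Their median was 6.12 for GFP and 6.37 for NRF3, and their upper quartile 7.52 for GFP and 7.85 for NRF3. The Nfe2l3 probe set read 6.04 with GFP and 10.15 with NRF3. All 7 melanocytic markers were detected, whereas none of the 11 matched markers of leukocytes, of fibroblasts or endothelium and of epithelium was, with no value above 5.54 with GFP or 5.63 with NRF3.

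The members did not differ in 1 direction. With NRF3, Oca2 and Slc24a4 were higher and Trpm1 and Mfsd12 lower by 2-fold or more, and the other 5 lay within 2-fold. The higher members were 2 of 9, beside 6.75% of all detected genes, and the lower ones 2 of 9, beside 11.0%. The median difference of the members was -0.16, beside -0.07 over all detected genes, whose quartiles were -0.55 and 0.39 and of which 45.8% lay above 0. After each column was centred on its median, 9.20% of the detected genes were higher and 8.59% lower, and after quantile normalization 8.62% and 8.95%. Centring moved the median of all detected genes to 0.05. The same 4 members passed the rule in the same directions under both scalings, whose shifts were small beside the differences of these members. Slc24a4 and Mfsd12 each had a value under the floor, so their folds depend on background.

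**Figure D1:**
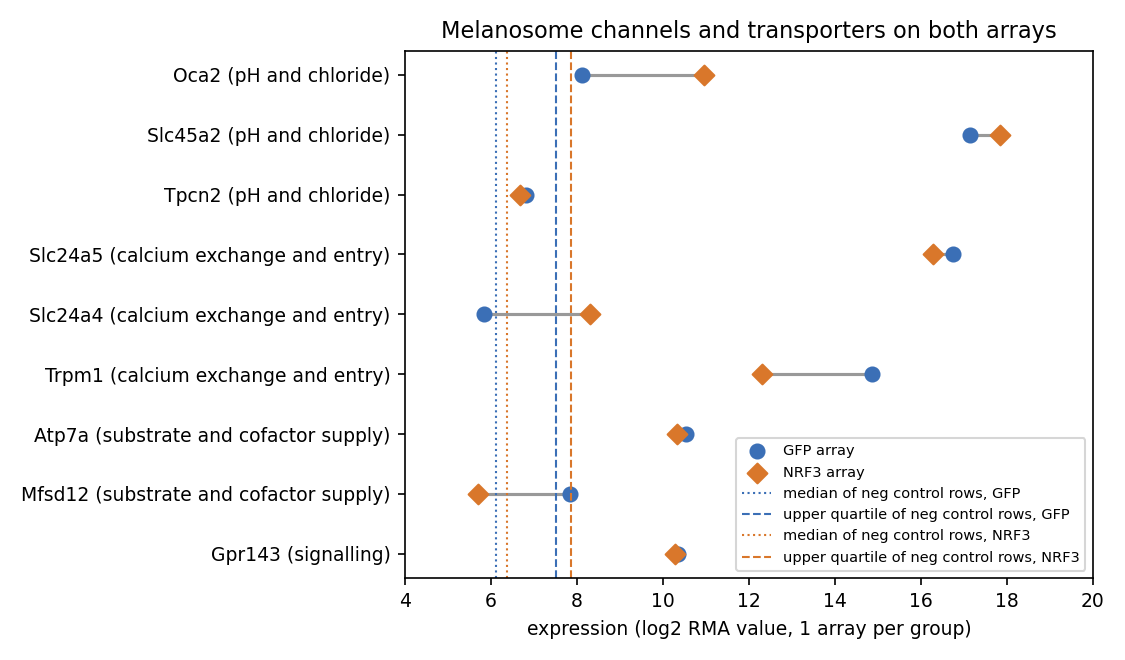
Log2 RMA values of the 9 members for GFP (blue circles) and NRF3 (orange diamonds), 1 array per group, with the median (dotted) and upper quartile (dashed) of the neg control rows of each array. Oca2 moved from 8.12 to 10.95 and Trpm1 from 14.85 to 12.31 above those lines, while the dimmer values of Slc24a4, at 5.84, and Mfsd12, at 5.70, lay below the medians.

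The start regions of the 4 genes past the 2-fold rule are shown because these genes carry the differences. They are the RefSeq windows of 250 bases before and 50 bases after an annotated start (GRCm38.p6), and which start the cells used was not measured. RefSeq windows were matched for 7 of the 9 members, 8 windows in all. Capitals mark matches to 4 motifs searched on both strands. They were the E-boxes CACGTG and CATGTG, which MITF can bind, the antioxidant response element core TGACNNNGC, which cap'n'collar factors bind with small MAF proteins, and the cAMP response element TGACGTCA. No match overlapped another in these windows, and the Mfsd12 window held none.
Oca2 (chr7:56239509-56239808, plus strand): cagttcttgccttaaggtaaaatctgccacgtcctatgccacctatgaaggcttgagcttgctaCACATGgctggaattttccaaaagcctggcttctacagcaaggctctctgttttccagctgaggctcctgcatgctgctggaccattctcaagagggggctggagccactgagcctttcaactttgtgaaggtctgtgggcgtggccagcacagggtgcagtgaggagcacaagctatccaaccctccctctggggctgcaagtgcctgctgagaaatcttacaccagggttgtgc
Trpm1, upstream start (chr7:64153585-64153884, plus strand): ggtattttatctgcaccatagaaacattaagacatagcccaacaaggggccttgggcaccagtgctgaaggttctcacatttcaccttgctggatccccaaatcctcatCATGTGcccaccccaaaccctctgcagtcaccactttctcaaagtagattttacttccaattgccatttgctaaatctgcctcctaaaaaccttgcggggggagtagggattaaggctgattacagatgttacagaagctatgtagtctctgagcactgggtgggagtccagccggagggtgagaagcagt
Trpm1, downstream start (chr7:64185209-64185508, plus strand): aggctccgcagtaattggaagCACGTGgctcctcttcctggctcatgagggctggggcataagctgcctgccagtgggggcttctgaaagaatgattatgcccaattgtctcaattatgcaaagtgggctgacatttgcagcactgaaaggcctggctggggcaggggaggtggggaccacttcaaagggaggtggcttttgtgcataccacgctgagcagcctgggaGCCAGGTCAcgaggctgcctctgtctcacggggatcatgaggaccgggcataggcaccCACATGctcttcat
Slc24a4 (chr12:102128477-102128776, plus strand): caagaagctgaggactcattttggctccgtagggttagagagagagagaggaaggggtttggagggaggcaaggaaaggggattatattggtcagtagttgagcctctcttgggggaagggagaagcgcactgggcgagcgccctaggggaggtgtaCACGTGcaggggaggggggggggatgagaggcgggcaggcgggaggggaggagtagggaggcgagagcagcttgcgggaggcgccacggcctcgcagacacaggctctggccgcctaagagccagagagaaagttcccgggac
Mfsd12 (chr10:81357241-81357540, plus strand): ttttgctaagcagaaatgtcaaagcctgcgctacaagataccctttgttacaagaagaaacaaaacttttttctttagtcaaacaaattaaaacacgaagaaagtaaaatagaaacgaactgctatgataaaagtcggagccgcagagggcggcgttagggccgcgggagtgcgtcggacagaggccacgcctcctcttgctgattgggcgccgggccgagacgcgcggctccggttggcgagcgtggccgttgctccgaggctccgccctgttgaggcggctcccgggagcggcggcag

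CATGTG was found in the Oca2 window, in both Trpm1 windows and in that of Slc24a5, against 14.2% of all 32851 windows. Its match lay 186 bases before the start in Oca2 and 141 bases before the upstream start in Trpm1. CACGTG was found in Slc24a4, Atp7a and the downstream Trpm1 window, against 7.15% of all windows. The antioxidant response element core had 1 match, in the downstream Trpm1 window, against 12.4% of all windows, and TGACGTCA had none in the 8 windows, against 1.79%. Among the genes with the CATGTG letters, Oca2 was higher and Trpm1 lower in the NRF3 cells. These matches describe letters and not binding, and their bearing on the differences was not tested.

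Of the genes that set melanosome acidity, Oca2 differed most. Oca2 encodes the P protein, a melanosome membrane protein needed for a chloride conductance that raises luminal pH. Oca2 (NCBI gene 18431) read 8.12 with GFP and 10.95 with NRF3 on the log2 scale, a difference of 2.83 or 7.11-fold. Both values lay above the upper quartiles of the neg rows. With GFP 17.2% of the neg rows were brighter than Oca2, and with NRF3 3.66%. Oca2 ranked 16 from the top among the 10162 detected genes, and its difference was above that of all 500 detected genes nearest to it in mean level.

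Slc45a2 encodes MATP, a transporter of the melanosome membrane that also keeps the lumen from turning acidic. It read 17.14 in the GFP cells and 17.84 in the NRF3 cells, higher by 0.70, or 1.63-fold, which is inside the 2-fold rule. Both values lay above 16, near the top of the scale. The 165 genes averaging above 16 had quartiles of -0.45 and 0.24. Of these genes, 10 had a larger positive difference than Slc45a2 and 154 a lower one.

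Tpcn2 encodes the TPC2 cation channel, whose activity acidifies the melanosome and lowers pigment, the opposite role to Oca2 and Slc45a2. It read 6.82 with GFP and 6.67 with NRF3, which differ by -0.16. Both values lay between the median and the upper quartile of the neg rows, and 36.8% and 44.5% of those rows were brighter. Of the 23 background rows graded by GC content, 4 were brighter than Tpcn2 on each array. Neither value can be told from the neg rows, so no difference in Tpcn2 was read from them.

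The calcium group went both ways, and its 3 genes spanned differences from -2.54 to 2.47. Trpm1, also called melastatin, encodes a cation channel of melanocytes and retinal bipolar cells and is a known target of MITF. Trpm1 (NCBI gene 17364) read 14.85 in GFP and 12.31 in NRF3 cells. The difference of -2.54 is 5.83-fold lower with NRF3. Both values were far above the control rows, of which 0.56% were brighter with GFP and 1.86% with NRF3. Trpm1 ranked 81 from the bottom among the detected genes, and its difference lay below those of all 500 genes nearest in mean level.

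Trpm1 is also the host gene of a microRNA. The Mir211 hairpin lies inside the annotated Trpm1 gene on the same strand, and its 5p arm is located at chr7:64205831-64205852 (GRCm38.p6, plus strand). It is shown, with the seed (bases 2 to 8) in capitals, because Trpm1 is among the 4 genes past the rule and hosts it. No probe set was named for Mir211, and the microRNA was not analysed here.
mmu-miR-211-5p: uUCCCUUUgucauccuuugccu

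Slc24a4 and Slc24a5 encode potassium-dependent sodium-calcium exchangers, NCKX4 and NCKX5, both tied to pigment variation in people. Slc24a4 (NCBI gene 238384) read 5.84 with GFP and 8.31 with NRF3, which differ by 2.47 or 5.53-fold. The GFP value lay under the floor and under the median of the neg rows, 56.2% of which were brighter, so the fold depends on background. With dim values raised to the median of the neg rows of the same array the fold was 4.57, and with the upper quartile it was 1.73. On the NRF3 array 19.7% of the neg rows were brighter than Slc24a4. Of the 23 background rows graded by GC content, 11 were brighter with GFP and 0 with NRF3. Slc24a5 read 16.74 in the GFP cells and 16.29 in the NRF3 cells, a difference of -0.45. Of the 165 genes with a mean above 16, which include Slc24a5, 41 had a lower difference than it and 123 a higher one. Slc24a5 was thus within 2-fold, and Slc24a4 was past it from a GFP value that cannot be told from background.

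A pair of members supplies the enzymes and the chemistry of melanin. Atp7a, the pump that delivers copper to tyrosinase, read 10.53 with GFP and 10.33 with NRF3, which differ by -0.21. This lay inside the middle range of the 500 genes of like level, from -0.51 to 0.43. Mfsd12 is needed for cystine import into melanosomes and thereby for the red and yellow pheomelanin. Mfsd12 (NCBI gene 73822) read 7.85 in GFP and 5.70 in NRF3 cells. The difference of -2.14 is 4.42-fold lower with NRF3. Only 6 of the 500 genes of like level had a lower difference. The NRF3 value lay under the floor, and 63.5% of the neg rows on that array and 12 of 23 background rows graded by GC content were brighter. On the GFP array 20.4% of the neg rows and 0 of the 23 background rows were brighter than Mfsd12. With dim values raised to the median of the neg rows the fold was 2.77. With the upper quartiles no lower value was left, since the Mfsd12 reading in the GFP cells, 7.85, was itself level with the upper quartile on the NRF3 array.

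Gpr143, the ocular albinism receptor of the melanosome membrane, controls melanosome number and size. It read 10.35 with GFP and 10.28 with NRF3, which differ by -0.07. Of the 500 genes of like level 248 had a lower and 252 a higher difference, so Gpr143 lay in the middle of them. Its sign turned to 0.05 after median centring.

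**Figure D2:**
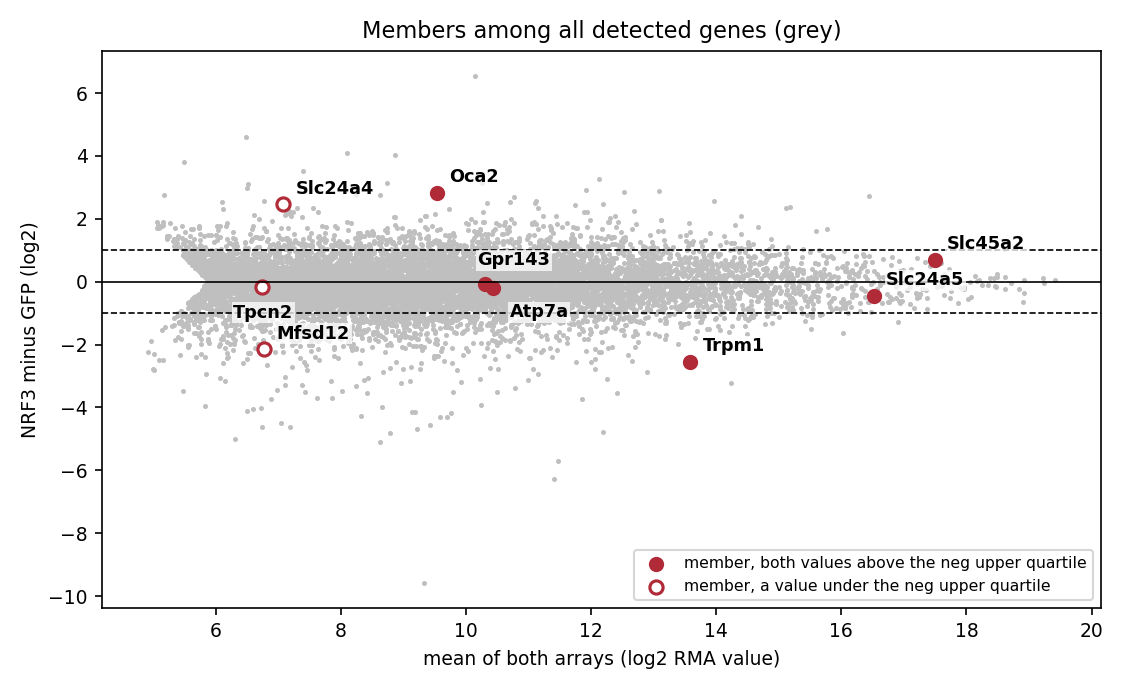
Difference of NRF3 minus GFP (log2) against the mean of both arrays for the 10162 detected genes (grey) and the 9 members (red), with dashed lines at 2-fold; open circles are members with a value under the upper quartile of the neg rows. Oca2, at 2.83, and Trpm1, at -2.54, lie at opposite edges of the cloud with filled circles, whereas Slc24a4, Mfsd12 and Tpcn2 are open circles at its dim end.

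Each member was then set beside the detected genes next to it in RefSeq gene order, 10 on each side. Oca2 and Trpm1 are near neighbours on chromosome 7 with 3 detected genes between them, and they differed in opposite directions. The genes between them differed by 0.35 for Ube3a, -0.32 for Otud7a and -0.21 for Klf13. Herc2, whose human counterpart holds the main enhancer of OCA2, lay on the other side of Oca2 and differed by 0.15. The median over the 20 neighbours of Oca2 was -0.01 and that over the 20 neighbours of Trpm1 was 0.16. All 20 neighbours had a lower difference than Oca2, and none had a lower one than Trpm1. The gene next to Trpm1 on its far side, Mtmr10, was higher by 1.39.

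For Slc24a4, on chromosome 12, the neighbours had a median of -0.01 and lay between -1.33 and 1.32, all below its own difference of 2.47. The GFP reading of Slc24a4 lay under the floor, however. With dim values raised to the upper quartiles of the neg rows its difference was 0.79, inside that range of its neighbours as deposited. For Mfsd12, on chromosome 10, the neighbours had a median of -0.03 and lay between -1.83 and 0.63, all above its own -2.14. The lowest of them, Pip5k1c, at -1.83, was close to Mfsd12, whose NRF3 reading lay under the floor. Around the 4 members past 2-fold the neighbour medians thus lay between -0.03 and 0.16. Slc45a2, on chromosome 15, stood in a lower neighbourhood, with a median of -0.52, and 18 of its 20 neighbours had a lower difference. Relative to these neighbours Slc45a2 was higher by 1.22, past the 2-fold rule. Slc24a5, on chromosome 2, lay next to Sema6d, which differed by 4.02, and to Myef2, at -0.94, while its own difference was -0.45. On the X chromosome Atp7a had neighbours with a median of -0.23 and Gpr143 neighbours with a median of 0.37. Tpcn2 stands at the end of the detected genes of chromosome 7 and had 10 neighbours, on 1 side, with a median of -0.17.

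**Figure D3:**
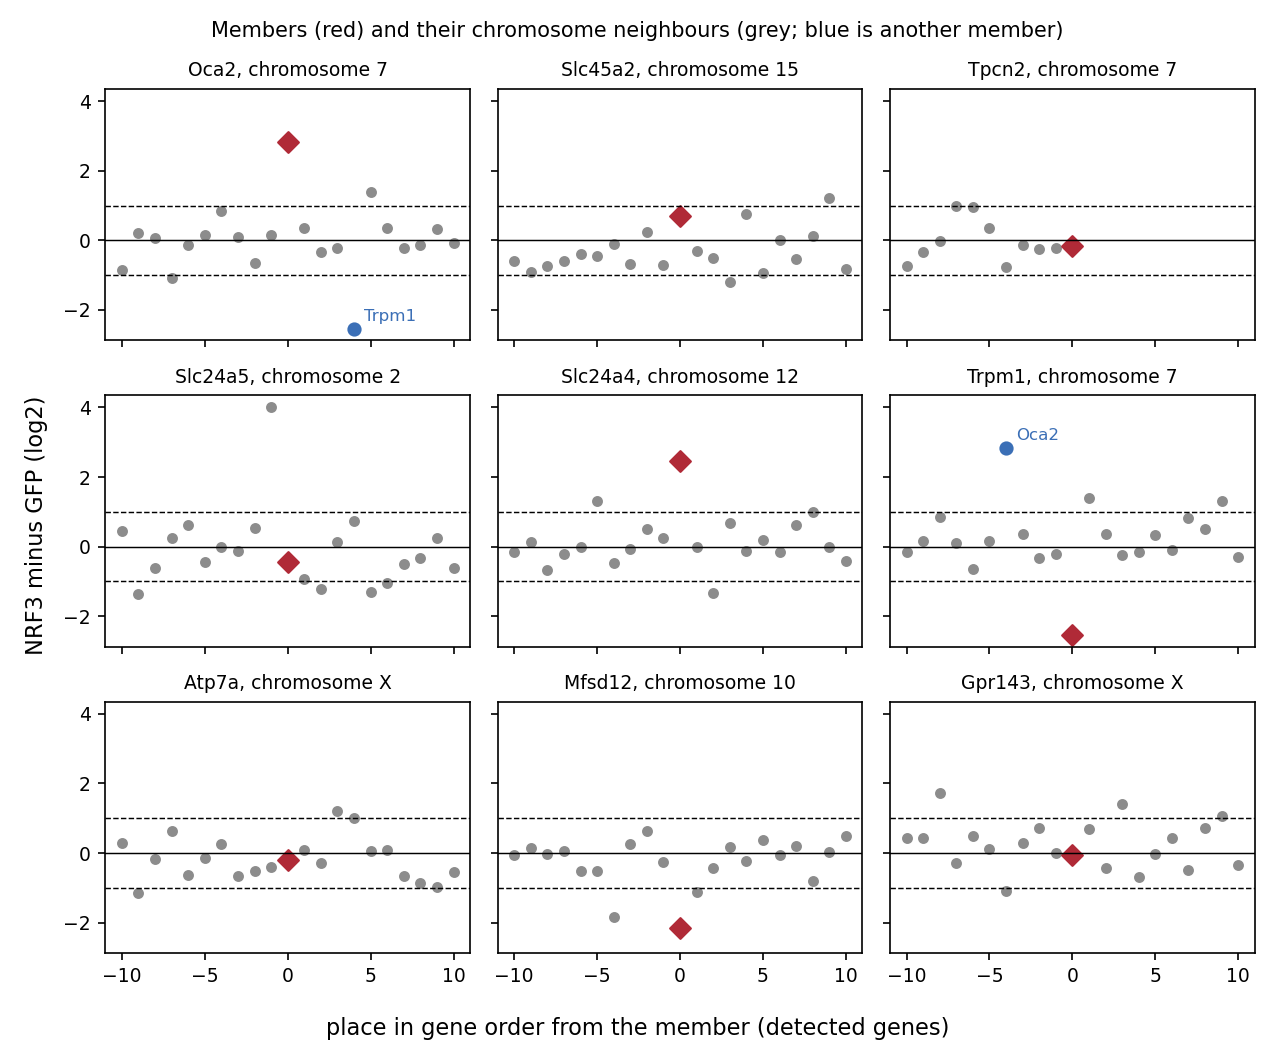
Difference of NRF3 minus GFP (log2) for each member (red diamond) and the detected genes up to 10 places away in gene order (grey; blue marks another member), with dashed lines at 2-fold. Oca2, Trpm1 and Slc24a4 stand apart from the grey points around them, Slc24a4 from a GFP value under the floor. Mfsd12, at -2.14, lies near its neighbour Pip5k1c, at -1.83, and Oca2 and Trpm1 appear in each other's panels on opposite sides of 0.

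The genes that work with the members were taken from lists by function. Counts past 2-fold in all of these lists are to be read beside 6.75% of all detected genes higher and 11.0% lower. The proton pump that acidifies melanosomes and lysosomes, the V-ATPase, had 16 detected subunit and accessory genes of 17 listed. Of these 3 were at least 2-fold higher, 1 was at least 2-fold lower and 13 lay above 0, beside 45.8% of all detected genes, with a median of 0.37. Atp6v0d1, a subunit of the membrane sector, was higher by 1.52 and Atp6v1a, the catalytic subunit, by 1.04. Atp6ap1 and Atp6ap2, the accessory subunits, differed by -1.09 and -0.36. Atp6v0d1 lies on chromosome 8, and relative to its neighbours it was higher by 0.55, while Atp6v1a was higher by 1.20 relative to its own.

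Of 13 other channels and exchangers of endosomes and lysosomes, 2 passed the rule upward and 2 downward. The shares of all detected genes were 6.75% and 11.0%, and the median of the list was 0.24. Mcoln1, the lysosomal calcium channel TRPML1, was higher by 1.96 and Clcn4, a chloride-proton exchanger, by 1.23. The Clcn4 value on the GFP array, 6.77, lay under the upper quartile of the neg rows. Relative to their neighbours Mcoln1 was higher by 1.49 and Clcn4 by 0.62, which is inside the 2-fold rule. Pacc1, a proton-activated chloride channel, differed by -1.17, and Tmem9, a lysosomal membrane protein, by -1.12. Tmem9 and Pacc1 lie on chromosome 1, and relative to their neighbours they differed by -0.16 and -0.45. Tpcn1, the paralog of Tpcn2, differed by -0.90. Tpcn1 is named here for that kinship.

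Other close relatives of the members were mostly dim. Of 15 paralogs other than Tpcn1, which was counted above, 5 were detected, none differed by 2-fold, and their median was -0.46. The lowest of these 5 were Trpm7, at -0.67, and Slc45a3, at -0.54, and the highest Slc45a4, at -0.40, and Slc8b1, at -0.28. Slc45a3 and Trpm4, whose difference is the median, read under the upper quartiles of the neg rows on both arrays. Relative to their neighbours Trpm7, Slc45a3, Slc45a4 and Slc8b1 differed by -0.16, 0.15, -0.18 and -0.49. The other Slc24a exchanger genes, Slc24a1, Slc24a2 and Slc24a3, read between 2.63 and 4.77 on both arrays, below the floor.

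Copper handling genes lay below 0 for the most part. Of 9 detected, 1 lay above 0, beside 45.8% of all detected genes, and 8 had a negative difference. Of these 1 was at least 2-fold lower, none of the list was as much higher, and the median was -0.57. After median centring 8 were still below 0. Slc31a2, whose difference is the median, Ccs and Sco1 each had a value under the upper quartile of the neg rows. Mt2, a metallothionein, differed by -1.28 and Atox1, the chaperone that hands copper to ATP7A, by -0.99, with values of 11.42 for GFP and 10.43 for NRF3. Slc31a1, the copper importer CTR1, read 12.49 and 11.77, a difference of -0.72. Sco1 was at -0.22 and Commd1 was higher by 0.81. Relative to their neighbours Mt2, Atox1, Slc31a1, Sco1 and Commd1 differed by -1.94, -1.08, -0.57, 0.12 and 0.62. Slc31a1 is named as the entry point of copper.

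Cystine supply and glutathione genes were mostly brighter in the NRF3 cells. Of 7 detected, 6 had a positive difference, beside 45.8% of all detected genes. The 2-fold rule was passed upward by 2 and downward by none, and the median was 0.89. Slc7a11, the cystine importer of the plasma membrane, read 11.09 and 13.94, higher by 2.85. Its partner Slc3a2 read 16.85 and 17.58, higher by 0.74. Ctns, which carries cystine out of lysosomes, read 13.23 with GFP and 14.22 with NRF3, higher by 0.99. Gclm, of glutathione synthesis, was higher by 2.38, and Gss was at -0.66. Slc7a11 and Gclm were the genes of this list past 2-fold as deposited. Set against their neighbours, Slc7a11, Gclm, Ctns, Slc3a2 and Gss differed by 2.64, 2.44, 1.22, 0.90 and -0.47.

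The melanin enzymes and lineage factors set the frame for these values. Tyr was higher by 1.41, the 1 gene of 8 past 2-fold, and the list had a median of -0.10, which turned to 0.03 after median centring. Mitf read 14.26 and 15.19, higher by 0.93, while Trpm1, its known target, was lower by the values given above. Tyrp1, Dct and Pmel differed by 0.05, -0.25 and 0.12, Mlana by -0.56 and Sox10 by -0.49. With neighbour medians subtracted, Tyr and Mitf differed by 1.14 and 1.01. Tyrp1, Dct, Pmel, Mlana and Sox10 then stood at 0.22, 0.02, 0.44, -0.34 and -0.04. Of the inhibitory G protein genes through which GPR143 can signal, Gnai2 and Gnai3 were detected, and both differed by -0.16. Gnai1 was not detected, with values of 5.12 and 5.39.

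**Figure D4:**
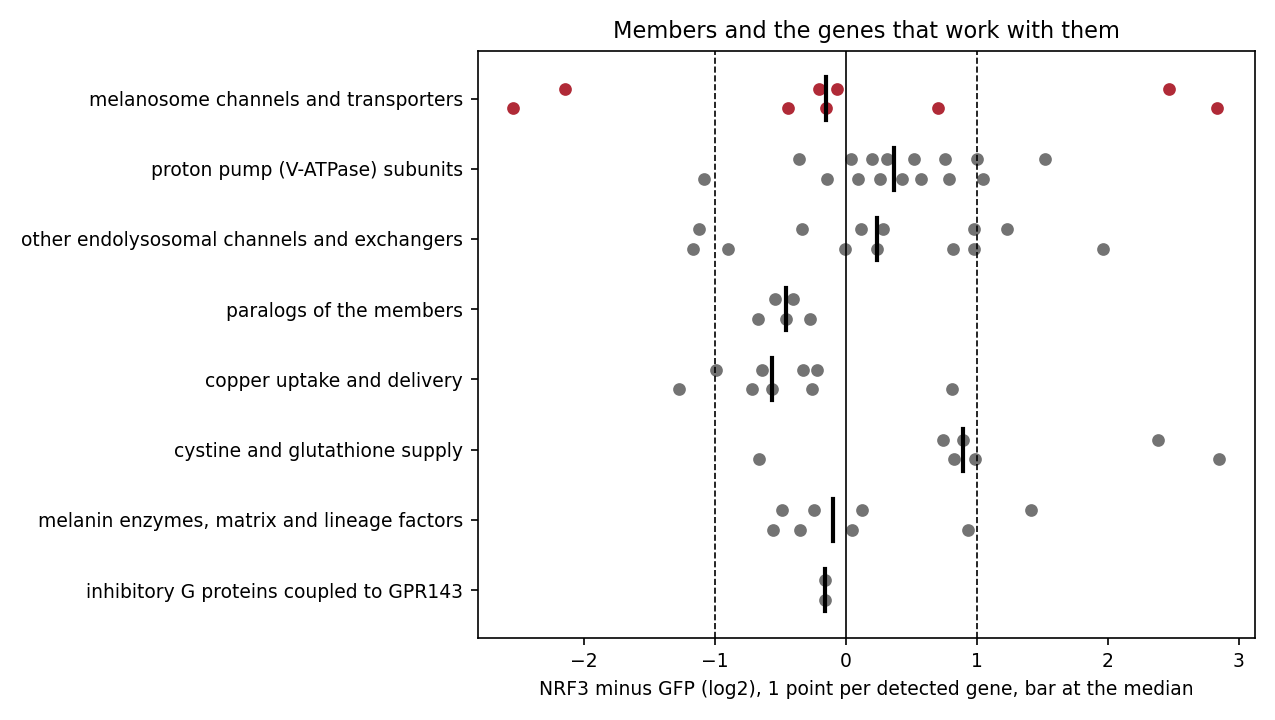
Difference of NRF3 minus GFP (log2) for the members (red) and for the detected genes of 7 lists by function (grey), 1 point per gene, bar at the median, dashed lines at 2-fold. The members spread from -2.54 to 2.83 around a median of -0.16, while the cystine and glutathione list has a median of 0.89 and the copper list one of -0.57.

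**Figure D5:**
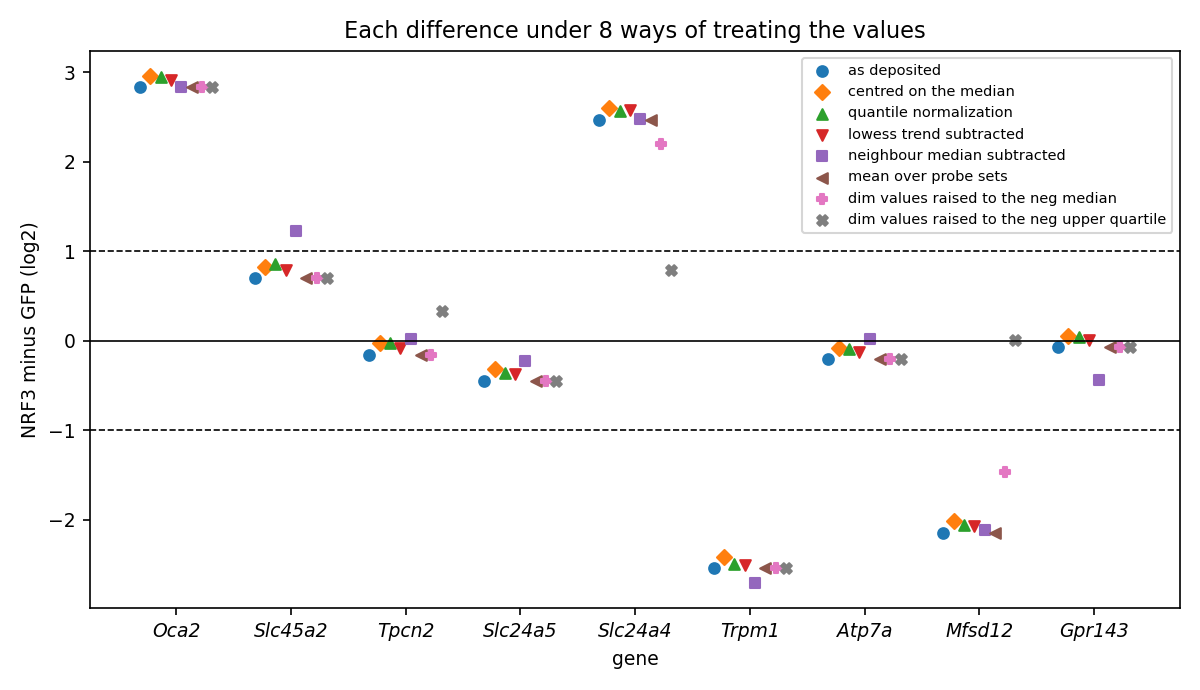
Difference of NRF3 minus GFP (log2) of each member under 8 ways of treating the values, with dashed lines at 2-fold. Oca2 kept between 2.83 and 2.96 and Trpm1 between -2.70 and -2.42, whereas Slc24a4 came down to 0.79 and Mfsd12 to 0.0060 when dim values were raised to the upper quartiles of the neg rows.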

How the data were processed

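The authors deposited 1 table of log2 expression values per probe set, made with Affymetrix Expression Console and RMA, per the submitters' processing notes. Versions, settings and annotation build are not stated there. The table holds 28846 values per array, and its highest log2 values, 19.8 and 19.7, pass the limit of 16 of a 16-bit scanner, so folds are folds on the deposited scale. Probe sets were named from the platform annotation supplied with the series (19572 with 1 symbol), keeping the brightest probe set per gene. Gene order came from RefSeq (GRCm38.p6). The neg rows are controls by name only, and some carry signal. No test was possible with 1 array per group, and the number of arrays limits the precision, as does background for dim readings. Differences, ranks, neighbour medians and the lowess trend (span 0.3) were computed in Python 3.11.15 with pandas 2.3.3 and statsmodels 0.14.6, and checked on simulated data. Genes of like pattern were not sought, since 2 arrays give 1 difference per gene. Members and gene lists were chosen with earlier results of these data known. Of the lists' entries, those not named on the array were left out. All members were named, with the 2 highest and 2 lowest detected genes of each list (all of lists of 4 or fewer), Nfe2l3 and 6 fixed pigment genes. Others were named for position or function after their values were seen, as were the motifs.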

Additional observations from a re-analysis of the deposited data

How the results depend on the processing

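No paired analysis was possible because each group has 1 array. Oca2 and Trpm1 stayed past 2-fold in the same direction under median centring, quantile normalization, the lowess trend and neighbour medians subtracted; raising dim values could not move them, and the mean over probe sets could move no member, since each has 1. The counts of 2 higher and 2 lower members were the same under median centring, quantile normalization and the lowess trend, and with neighbour medians subtracted 3 were higher, Slc45a2 being added at 1.22. With only the 7 members above the floor on both arrays, or the 6 above the upper quartile of the neg rows on both, 1 was higher and 1 lower, because Slc24a4 and Mfsd12 drop out. Raising dim values to the upper quartile of the neg rows, chosen after the data were seen, also left 1 and 1, with Slc24a4 at 0.79 and Mfsd12 at 0.0060, and moved the median of the members to 0.0060, the value of Mfsd12. At 1.5-fold 3 were higher and 2 lower, and at 4-fold 2 and 2. The median was -0.030 after median centring and after quantile normalization and 0.019 with neighbour medians subtracted, so its sign is not settled. Small differences changed sign for Tpcn2, Atp7a and Gpr143.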
